A study of Mus musculus with 6 samples.

Results

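The T cell receptor gene segments of mouse CD4+CD8+ double-positive (DP) thymocytes were examined in 6 RNA sequencing libraries, 3 from Paxbp1 cKO mice and 3 from controls. The segments were chosen by their symbols, as every variable (V), diversity (D), joining (J) or constant (C) segment of the α (Tra), β (Trb), γ (Trg) and δ (Trd) loci in the deposited gene table. This gave 131 of 22322 genes, of which 63 had a count in any library. Control mice were littermates with 2 floxed Paxbp1 alleles (Paxbp1 fl/fl), and cKO mice carried the same alleles with the Lck-cre transgene, whose promoter is active in T-lineage cells from the early thymocyte stages onward. All mice were on the C57BL/6 background, were 4 to 7 weeks old and received no treatment, and DP cells of both genotypes were sorted from the thymus by flow cytometry. The labels number the libraries 1 to 3 within each genotype and do not say whether each came from a separate mouse, so the p-values measure only the spread between these libraries.

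T cell receptors are assembled in the thymus by cutting and joining of gene segments. The β, γ and δ loci rearrange in CD4-CD8- (DN) thymocytes, and a productive β chain, paired with the invariant pre-Tα chain, drives the cells through the immature single-positive (ISP) stage to the DP stage. The α locus then rearranges in DP cells, beginning with V segments near the J cluster and J segments near the V cluster and moving outward with each further joining event, so the length of DP life is known to set how far along the array a cell can reach. The δ locus lies inside the α locus, between the Trav and Traj clusters, and is cut out when a Vα segment joins a Jα segment. In mice part of the Trav array exists in several near-identical stretches, and segments in the extra stretches carry the letter d or n in their names.

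The 6 libraries held between 18963775 and 26252248 counts, so 1 count was worth 0.0381 to 0.0527 CPM (counts scaled to the size of the library, here with edgeR's TMM factors). Paxbp1 itself was at 15.5 to 40.2 CPM in control libraries and 38.9 to 49.6 CPM in cKO libraries (log2 difference 0.92 ± 0.33 SE; edgeR adjusted p = 0.0977, 0.00170 without control replicate 1, and 0.0210 with DESeq2). The level was thus not lower in cKO libraries, but the count covers the whole gene while the floxed part is exon 8, so it does not check the genotype labels. The DP markers Cd4, Cd8a, Cd8b1, Rag1, Rag2, Ptcra and Dntt were all detected in every library. Of these 7, Rag1 and Cd8b1 were called lower in cKO libraries, beside 5.89% of all genes tested. The summed level of the 7 was 5873 to 7148 CPM against 7978 to 10027 CPM in controls. Macrophage markers were higher in cKO libraries, with 4 of 7 tested genes called higher (Adgre1, C1qb, C1qc and Cd68), beside 4.47% of all genes tested. The summed level of the list was 25.98 to 41.04 CPM against 4.27 to 9.86 CPM in controls. Of the 8 listed markers, only Mertk was at 0 in every library. The part of either list in the results on receptor segments was not tested. In these sorted bulk samples, fewer cells of a type and less RNA per cell cannot be told apart.

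Of the 131 segments, 42 passed the filter on low counts and 6 were past the threshold (edgeR quasi-likelihood test, Benjamini-Hochberg adjusted p below 0.05 over all 11488 genes tested). This is 6 of 42 beside 10.4% of all genes tested. The α constant segment Trac, the β constant segment Trbc2 and the α variable segment Trav6d-3 were lower in cKO libraries, where 5.89% of all genes were called lower. The γ constant segments Trgc1, Trgc2 and Trgc4 were higher, where 4.47% of all genes were called higher. With the added requirement of an absolute log2 difference above 1, 4 segments remained (Trgc1, Trgc2, Trgc4 and Trav6d-3), beside 2.76% of all genes. The median log2 difference of the 42 tested segments was -0.46, and that of all genes tested was -0.0017. The libraries of the genotypes did not overlap for 17 of the 42 segments, beside 33.0% of all genes tested.

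**Figure D1:**
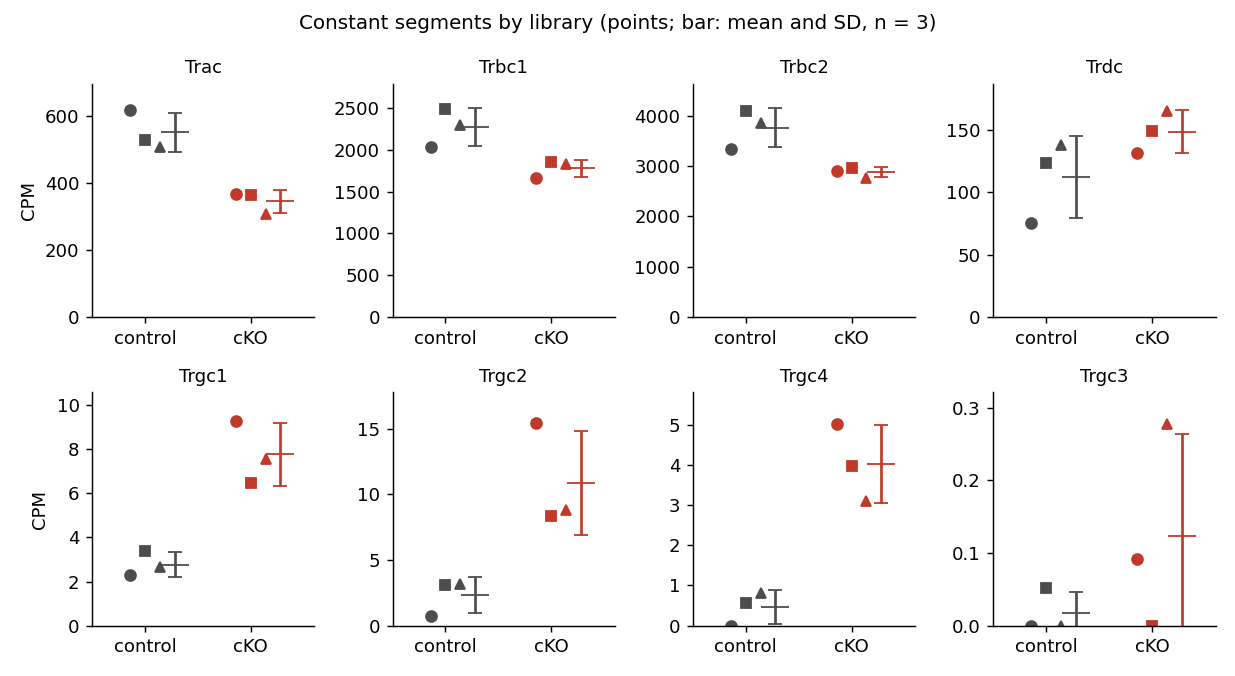
Levels in CPM of the 8 constant segments in each library (circle, square and triangle for replicates 1, 2 and 3), with the mean and SD of each genotype (n = 3) beside the points; each panel has its own axis from 0. Trac, Trbc1 and Trbc2 are lower in every cKO library, Trgc1, Trgc2 and Trgc4 are higher in every cKO library, and Trdc overlaps.

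The constant segments of the α and β chains were lower in cKO libraries. Trac, which encodes the part of the α chain shared by all αβ T cells (chr14:54220521-54224206, GRCm38, plus strand), was at 618, 529 and 508 CPM in control libraries and at 366, 364 and 306 CPM in cKO libraries. No cKO library reached the lowest control. The mean fell from 551.5 ± 58.2 to 345.6 ± 34.2 CPM (SD, n = 3 each), a log2 difference of -0.67 ± 0.12 SE with an edgeR adjusted p of 0.0103. Without cKO replicate 3 the log2 difference was -0.60 and the adjusted p 0.0704. On the authors' FPKM scale, which is per length, Trac was at 711 ± 97.4 in controls and 439 ± 40.3 in cKO.

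The β chain has a pair of interchangeable constant segments, each behind its own D and J cluster. Trbc2 (chr6:41546730-41548352) was at 3329, 4084 and 3859 CPM in control libraries and at 2893, 2961 and 2765 CPM in cKO libraries, without overlap. The log2 difference was -0.39 ± 0.11 SE (edgeR adjusted p = 0.0450). Trbc1 (chr6:41538218-41539881) was at 2040, 2483 and 2300 CPM in controls and at 1661, 1849 and 1826 CPM in cKO libraries, also without overlap, and its log2 difference of -0.35 ± 0.11 SE had an adjusted p of 0.0638. The calls on both segments lay close to the threshold. Trbc2 lost its edgeR call with RLE factors, another scaling of the libraries, in place of TMM (adjusted p = 0.0503) and with a minimum mean of 5 CPM. It also lost the call in 5 of the 6 fits without 1 library, whose adjusted p was 0.0975 to 0.169. It kept the call without control replicate 1 (adjusted p = 0.00441), with the replicate number as a block (0.0243) and with the DESeq2 test (0.0153). Trbc1 passed without control replicate 1 (adjusted p = 0.00958), with the replicate number as a block (0.0265) and with DESeq2 (0.0315). The fit without control replicate 1 called 2030 of 11873 genes tested, beside 1191 of 11488 in the full fit. Fits without any other single library called 120 to 745 genes. Trbc1 and Trbc2 share 495 of 518 coding bases, so reads could be split between them. Trbc1 made up 37.7% ± 0.34 of their summed counts in controls and 38.2% ± 1.66 in cKO libraries, with overlap, and the summed level was 6032 ± 609 against 4652 ± 139 CPM. The ratio of Trac to Trbc counts was 115, 80.5 and 82.5 per 1000 in controls and 80.5, 75.7 and 66.7 per 1000 in cKO libraries. The highest cKO library lay just below the lowest control.

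Among the chains that form the receptor complex with these products, Cd3e and Cd3g fell. Cd3e, a signaling chain of the CD3 complex, went from 594.3 ± 57.8 to 390.2 ± 11.8 CPM (log2 difference -0.61 ± 0.11 SE; edgeR adjusted p = 0.0104). Cd3g, its dimer partner in one of the CD3 pairs, went from 825 ± 98.9 to 594.7 ± 57.0 CPM (-0.47 ± 0.13 SE; adjusted p = 0.0407). Cd3e lost its call without control replicate 2 (0.0511) or cKO replicate 3 (0.0709), and Cd3g kept it only without control replicate 1, with 0.0721 to 0.172 without any other library. Cd247, the ζ chain (-0.36, adjusted p = 0.0688), Cd3d (-0.24, 0.254) and Ptcra, the pre-Tα chain (-0.31, 0.385), did not pass. Of 3 recombination genes, Rag1, a subunit of the V(D)J recombinase, fell from 2298 ± 308 to 1271 ± 233 CPM (-0.85 ± 0.15 SE; adjusted p = 0.00923), a call that did not hold without cKO replicate 3 (0.0656). Rag2, the other subunit, overlapped between genotypes (-0.37, adjusted p = 0.360), as did Dntt, which adds bases at the joints (-0.23, 0.278). None of 4 genes known to prolong DP life passed the test, with Bcl2l1 at -0.43 (adjusted p = 0.112), Tcf12 at -0.28 (0.144), Tcf7 at -0.27 (0.122) and Myb at -0.02 (0.955). In all, 3 of these 12 genes were called lower and 0 higher in the edgeR test, beside 5.89% and 4.47% of all genes tested. Without control replicate 1, Cd247 (adjusted p = 0.0348), Ptcra (0.0276), Dntt (0.0328) and Tcf7 (0.0338) also passed. In that fit 2030 of 11873 genes tested were called, beside 1191 of 11488 in the full fit and 120 to 745 without any other single library. Cd247 passed with the replicate block (0.0461) and with DESeq2 (0.0323), and Tcf7 with the block (0.0446).

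The γ constant segments showed the opposite direction from Trac and Trbc2. They lie in separate clusters of the γ locus on chromosome 13, each with its own V and J segments. The last 60 coding bases of the 3 tested γ constant segments are shown because 2 of them are almost the same and their reads could be exchanged. Capitals mark bases that differ from Trgc1.
Trgc1 (chr13:19216556-19216615, plus strand): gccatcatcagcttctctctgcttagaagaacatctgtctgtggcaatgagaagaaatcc
Trgc2 (chr13:19305063-19305122, minus strand): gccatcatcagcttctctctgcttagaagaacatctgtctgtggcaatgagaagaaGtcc
Trgc4 (chr13:19352281-19352340, plus strand): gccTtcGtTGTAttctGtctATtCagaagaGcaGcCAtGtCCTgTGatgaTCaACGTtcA
Over the aligned coding sequence, Trgc1 and Trgc2 were 97.4% identical and Trgc1 and Trgc4 77.3%. Only 1 of the 60 bases shown differed between Trgc1 and Trgc2, whereas 27 differed between Trgc1 and Trgc4.

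Trgc1 was at 2.28, 3.39 and 2.64 CPM in control libraries and at 9.27, 6.46 and 7.57 CPM in cKO libraries. Trgc2 was at 0.726, 3.14 and 3.15 CPM in controls and at 15.4, 8.33 and 8.82 CPM in cKO. Trgc4 was at 0, 0.566 and 0.815 CPM in controls and at 5.02, 3.96 and 3.09 CPM in cKO. For all 3 segments every cKO library lay above every control library, cKO replicate 1 was the highest and control replicate 1 the lowest. The log2 difference was 1.49 ± 0.33 SE for Trgc1 (edgeR adjusted p = 0.0216), 2.21 ± 0.50 SE for Trgc2 (adjusted p = 0.0236) and 3.08 ± 0.87 SE for Trgc4 (adjusted p = 0.0487). Summed over the γ constant segments the level was 5.59 ± 2.25 CPM in controls and 22.8 ± 6.12 CPM in cKO, a ratio of 4.08. Trgc3 had 0, 1 and 0 counts in controls and 2, 0 and 6 counts in cKO, and was below the filter.

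The γ calls depended on which libraries were kept. All 3 held without control replicate 1, where 2030 genes were called in all, beside 1191 in the full fit. Fits without any other single library called fewer genes in all, from 120 to 745. With DESeq2, which called 1914 genes, all 3 passed (adjusted p = 0.00145 for Trgc1, 0.000169 for Trgc2 and 0.00109 for Trgc4). Trgc1 lost its call without control replicate 3 (adjusted p = 0.0595), cKO replicate 1 (0.0816) or cKO replicate 3 (0.0887). Trgc2 lost it without control replicate 2 (0.0513), cKO replicate 1 (0.0983) or cKO replicate 3 (0.0751). Trgc4 kept its call only without control replicate 1 (0.0189), and without any other single library its adjusted p was 0.0617 to 0.142; with the replicate block it was 0.0690. The log2 difference stayed between 1.34 and 1.65 for Trgc1, 1.79 and 2.48 for Trgc2, and 2.52 and 3.80 for Trgc4 over these fits without 1 library.

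Markers of other cells were read beside the γ segments. Of 6 γδ T cell markers in the table, 0 were called higher and 1, Il17re, was called lower in cKO libraries (log2 difference -1.43; adjusted p = 0.00825, and 0.0510 without cKO replicate 3), and their summed level was 22.7 to 30.5 CPM in controls and 17.7 to 22.9 CPM in cKO. The lower sum came from Il17re. The other 5 markers each had a higher mean in cKO libraries, their sum without Il17re was 5.24 to 10.9 CPM in controls and 9.74 to 16.2 CPM in cKO, with overlap, and the median log2 difference of the 6 was 1.08. The γδ markers Sox13 (0 to 1.080 against 0.646 to 1.69 CPM), Blk (0.154 to 0.971 against 0.776 to 3.14 CPM) and Scart2 (0.0519 to 1.85 against 1.56 to 5.36 CPM) overlapped between genotypes and were not called, although Scart2 passed without control replicate 2 (adjusted p = 0.0311). Of 7 DN and ISP markers, Il2ra, the CD25 chain of the IL-2 receptor carried by DN cells, was called higher (4.67 to 7.76 CPM against 11.3 to 16.6 CPM; log2 difference 1.24, adjusted p = 0.0212, and 0.0543 to 0.0784 without control replicate 3 or any 1 cKO library). The summed level of that list was 17.1 to 23.4 CPM in controls and 24.9 to 29.0 CPM in cKO, and Erg was at 0 in every library. Without Il2ra the sum was 12.4 to 15.6 CPM in controls and 11.04 to 13.6 CPM in cKO, with overlap. The median log2 difference of the 4 tested members was -0.47, with Kit at -0.93 (adjusted p = 0.335) and Lyl1 at -1.06 (0.536). Dendritic cell markers summed to 1.54 to 3.96 CPM in controls and 4.06 to 6.25 CPM in cKO, with 0 of 2 tested genes called. B cell markers summed to 946.9 to 1299 CPM in controls and 867.9 to 908.2 CPM in cKO, with 1 of 2 tested genes called lower. Sums of mature single-positive, natural killer, erythroid and thymic epithelium markers overlapped. The part of any of these cells, or of macrophages, in the γ levels was not tested.

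The δ constant segment Trdc (chr14:54142851-54148868) did not pass the test. On the per-length FPKM scale it was at 28.7 ± 8.11 in controls, beside 2.96 ± 0.57 for Trgc1. It was at 75.0, 124 and 138 CPM in control libraries and at 132, 149 and 165 CPM in cKO libraries. The genotypes overlapped, with control replicate 1 the lowest of all (log2 difference 0.40 ± 0.20 SE; edgeR adjusted p = 0.224). The δ variable segments Trdv2-1, at 4.42 ± 0.58 against 5.41 ± 0.41 CPM (0.29, adjusted p = 0.590), and Trdv1, at 3.09 ± 1.19 against 3.26 ± 0.22 CPM (0.08, 0.933), also overlapped. Relative to Trac, which lies downstream in the same locus, the Trdc count was 121, 234 and 272 per 1000 in controls and 359, 409 and 540 per 1000 in cKO libraries, without overlap. A ratio within a library shows only that its terms differed unequally, and of the pair only Trac was past the threshold. The γ to β constant ratio was 0.560, 1.09 and 1.07 per 1000 in controls and 6.55, 3.90 and 4.30 per 1000 in cKO libraries. The γ variable segments gave 0, 1 and 0 counts in controls and 5, 2 and 2 counts in cKO over 3 segments, with Trgv3 at 0 in every control library, which is near the limit of 3 counts that a count of 0 allows (0.114 to 0.158 CPM).

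**Figure D2:**
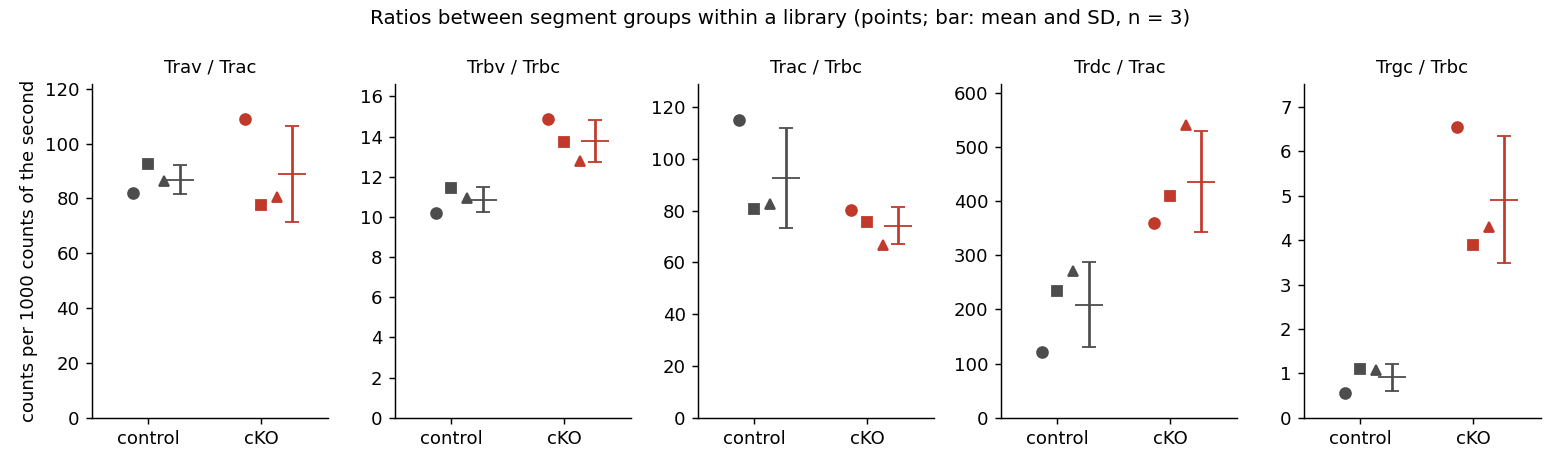
Ratios between summed counts of segment groups in each library, as counts of the first group per 1000 counts of the second (circle, square and triangle for replicates 1, 2 and 3; mean and SD, n = 3, beside them; axes from 0). The Trav to Trac ratio overlaps between genotypes, and the Trdc to Trac, Trgc to Trbc and Trbv to Trbc ratios are higher in every cKO library.

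Of the 128 Trav segments annotated in GENCODE M21, 38 were in the table, and the others were not analysed here. The 38 Trav segments were low and were mostly lower in cKO libraries. Their summed level was 50.5, 48.9 and 43.8 CPM in controls and 39.9, 28.2 and 24.6 CPM in cKO libraries, without overlap (47.8 ± 3.49 against 30.9 ± 7.99 CPM, a ratio of 0.647). Per 1000 Trac counts the Trav count was 86.9 ± 5.35 in controls and 88.9 ± 17.4 in cKO libraries, with overlap. On the per-length FPKM scale the mean of a Trav segment in controls ranged from 0.337 to 16.4. The group mean was lower in cKO in 33 of the 38 segments, and every cKO library lay below every control library in 13 of 38. Of all genes tested, 17.3% lay below in this way and 33.0% did not overlap in either direction, while the 38 include segments below the filter and copies with shared counts. A total of 28 segments passed the filter and 1 of these, Trav6d-3, was past the threshold.

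Trav16n, the highest Trav segment in CPM and on the per-length FPKM scale (16.4 ± 2.17 FPKM in controls), was at 6.17, 6.32 and 5.01 CPM in controls and at 3.79, 4.58 and 3.42 CPM in cKO libraries, without overlap (log2 difference -0.57 ± 0.32 SE; edgeR adjusted p = 0.279). Trav6-5 was at 3.94, 2.78 and 2.52 CPM in controls and at 1.96, 1.15 and 1.34 CPM in cKO, also without overlap (-1.05 ± 0.50 SE; adjusted p = 0.203). Trav12-1 was at 4.09 ± 0.37 against 3.43 ± 0.81 CPM, with overlap (-0.25; 0.712). Trav1, used by mucosal-associated invariant T cells and the Trav segment farthest from Traj, was at 1.504, 1.337 and 0.815 CPM in controls and at 0.959, 0.417 and 0.277 CPM in cKO, with overlap (-1.13 ± 0.73 SE; 0.351). At these counts, differences of this size did not pass the test. Trav11, the segment of invariant natural killer T cells, was not analysed here, and its joining partner Traj18 had 1 count in all libraries together.

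Several Trav rows could not be told apart by their counts. In 8 pairs of d and n copies the counts were the same in every library and the coding sequences were identical over their shared length, so the 38 rows held 30 distinct profiles. Of these 30, 26 had a lower mean in cKO and 10 lay below the controls in every cKO library, beside the same 17.3% of all genes tested (33.0% in either direction). Trav9d-2 and Trav9n-2 illustrate this with the last 60 coding bases of each, which have no differing base.
Trav9d-2 (chr14:52892559-52892618): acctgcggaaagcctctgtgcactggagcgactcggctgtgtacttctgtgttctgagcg
Trav9n-2 (chr14:53203495-53203554): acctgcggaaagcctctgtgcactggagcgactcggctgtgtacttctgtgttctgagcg
Both rows listed 36, 48 and 57 counts in controls and 30, 22 and 27 counts in cKO libraries. In CPM these were 2.18 ± 0.30 against 1.25 ± 0.11, without overlap (log2 difference -0.80 ± 0.52 SE; edgeR adjusted p = 0.355). The sources used here do not say whether such a read was given to both rows.

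The only Trav segment past the threshold belongs to such a family. The control libraries gave 25, 25 and 19 counts for Trav6d-3, and all 3 cKO libraries gave 0. Against a floor of 3 counts over the cKO group its level was at least 22.1-fold lower (edgeR adjusted p = 0.0149). Without control replicate 2 or cKO replicate 3 its adjusted p was 0.0614 or 0.0691. Its copy Trav6-3 had 8, 14 and 34 counts in controls and 54, 13 and 16 counts in cKO libraries, with overlap (log2 difference 0.65; adjusted p = 0.637). The last 60 coding bases of each are shown because they hold the single base by which the copies differ, in capitals.
Trav6-3 (chr14:53430318-53430377): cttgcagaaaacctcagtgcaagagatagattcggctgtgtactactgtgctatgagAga
Trav6d-3 (chr14:52726860-52726919): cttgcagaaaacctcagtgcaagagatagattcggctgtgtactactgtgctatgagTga
Counted from 1 at the first coding base of Trav6-3, the difference is A336T, with 2 coding bases after it. Summed over both copies the counts were 33, 39 and 53 in controls and 54, 13 and 16 in cKO libraries, with overlap. Refitted with the copies as 1 feature, the log2 difference was -0.57 and the adjusted p 0.622, so the call on Trav6d-3 did not hold when the copies were summed.

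**Figure D3:**
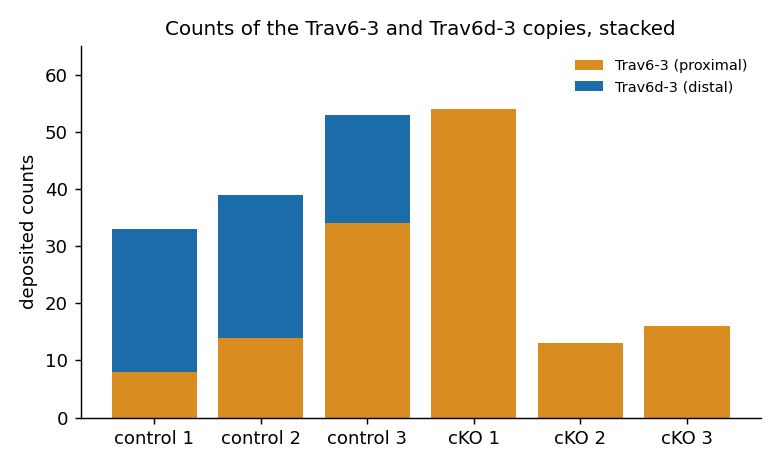
Deposited counts of Trav6-3 and Trav6d-3 in each library, stacked in 1 bar per library from 0. Trav6d-3 has counts in the 3 control libraries and none in the 3 cKO libraries, while the summed height overlaps between genotypes.

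To ask whether the difference followed the order of the array, the 38 Trav segments were divided by the order of their starts on chromosome 14 into 13 distal segments (Trav1 to Trav3d-3, farthest from Traj), 12 central segments (Trav9d-4 to Trav3n-3) and 13 proximal segments (Trav16n to Trav18, nearest to Traj). The shares of each class in all Trav counts of a library were compared. Distal segments held 26.8%, 25.0% and 25.3% of the 974, 951 and 1129 Trav counts of the control libraries and 20.8%, 22.0% and 19.5% of the 874, 542 and 533 Trav counts of the cKO libraries. Every cKO library lay below every control library, a difference of -4.96 percentage points (25.7% ± 0.95 against 20.8% ± 1.22). The 95% Wilson interval of the lowest control share was 22.4 to 27.9% and that of the highest cKO share 18.7 to 25.6%, so these intervals of single libraries overlapped. They cover no error beyond counting. The 8 pairs with the same counts enter on both rows, so the intervals are too narrow if a read was given to both. Proximal segments held 46.9%, 51.1% and 48.3% in controls and 53.1%, 52.2% and 55.0% in cKO libraries, a difference of 4.66 points without overlap. The Wilson intervals of the nearest libraries were 47.9 to 54.3% for control replicate 2 and 48.0 to 56.4% for cKO replicate 2. Central segments held 25.5% ± 1.43 and 25.8% ± 0.29, with overlap. The proximal separation depended on the cut by order. With classes cut by distance along the chromosome, 11 segments were proximal and Trav16n, the highest Trav segment, was central. The proximal shares then overlapped between genotypes, while the distal share of every cKO library stayed below that of every control library. A share of members was given no test.

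**Figure D4:**
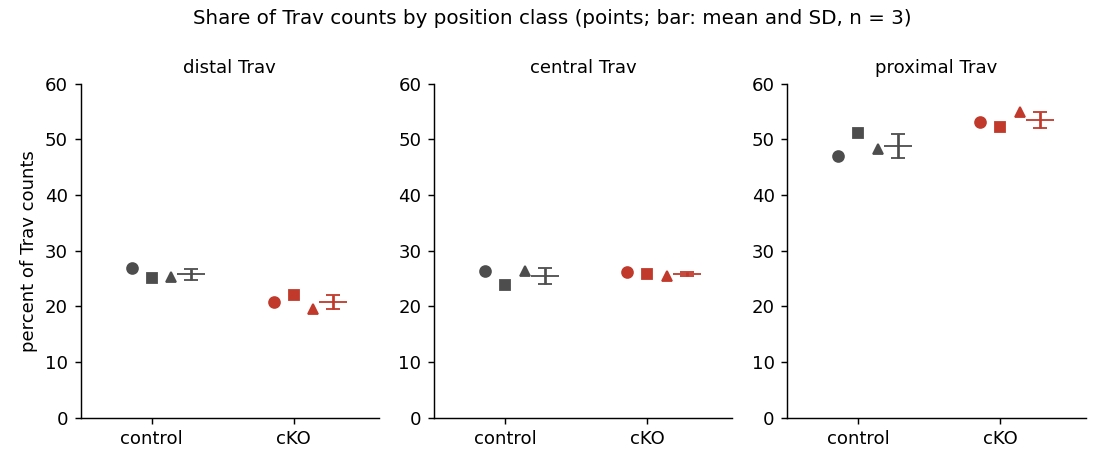
Share of all Trav counts held by distal, central and proximal Trav segments in each library, in percent (circle, square and triangle for replicates 1, 2 and 3; mean and SD, n = 3, beside them; axes from 0 to 60%). The distal share is lower and the proximal share higher in every cKO library, and the central share overlaps.

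All 3 classes had a lower mean level in cKO libraries. The summed level of distal segments was 12.3 ± 1.22 CPM in controls and 6.44 ± 1.77 CPM in cKO (ratio 0.524), that of central segments 12.2 ± 0.96 and 7.99 ± 2.15 CPM (0.657), both without overlap, and that of proximal segments 23.3 ± 1.95 and 16.5 ± 4.12 CPM (0.708), with overlap. The class medians of the log2 difference were -0.80 over 10 tested distal, -0.76 over 8 central and -0.48 over 10 proximal segments, beside -0.0017 for all genes tested. Across the 28 tested segments the log2 difference and the order along the array had a Spearman's rank correlation of 0.46. The correlation, positive where log2 differences rise toward Traj, is given as a description since copied segments share counts. Over all 38 segments it was 0.43, without Trav6-3 and Trav6d-3 it was 0.38, and over the fits without 1 library it ran from 0.28 to 0.55.

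The shares depended on how copies were counted. Each of the 8 pairs with the same counts had 1 copy in the distal and 1 in the central class, so the boundary between these classes is not resolved for them. The pair of Trav6 copies joins the distal and the proximal class. Without Trav6-3 and Trav6d-3 the distal difference was -2.81 points, with cKO libraries at 20.1 to 22.5% still below control libraries at 23.4 to 25.1%. The proximal difference was then 2.55 points and the libraries overlapped.

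Only 5 Trav segments in the table have no annotated d or n copy by name, so they bear on the array order without the ambiguity of such copies. Whether they share reads with other Trav segments was not tested. The last 39 coding bases of each, next to the site of joining to Traj, are shown with the last in-frame cysteine codon in capitals.
Trav1, distal (chr14:52428838-52428876): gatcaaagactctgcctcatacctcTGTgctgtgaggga
Trav2, distal (chr14:52568013-52568051): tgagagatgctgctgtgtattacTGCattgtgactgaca
Trav6-2, distal (chr14:52667826-52667864): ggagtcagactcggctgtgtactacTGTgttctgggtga
Trav17, proximal (chr14:53807077-53807115): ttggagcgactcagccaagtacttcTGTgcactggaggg
Trav18, proximal (chr14:53831789-53831827): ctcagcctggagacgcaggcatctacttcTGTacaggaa
Summed counts of the 3 distal segments were 57, 49 and 50 in controls against 31, 18 and 13 in the cKO group. The 2 proximal segments had 37, 69 and 71 counts in controls and 46, 32 and 49 counts in cKO libraries. As a share of their joint counts the distal segments held 60.6%, 41.5% and 41.3% in controls and 40.3%, 36.0% and 20.97% in cKO libraries, a difference of -15.4 points (47.8% ± 11.1 against 32.4% ± 10.1) without overlap. The highest cKO library lay just below the lowest control, and control replicate 1 stood apart from the other control libraries. Trav2 had 18, 15 and 19 counts in controls and 5, 8 and 6 counts in cKO libraries, without overlap, and did not pass the test (log2 difference -1.39 ± 0.74 SE; edgeR adjusted p = 0.252). Trav17 was at 2.63 ± 0.69 against 1.91 ± 0.36 CPM, with overlap (-0.46; 0.592). Trav18 had only 0, 5 and 2 counts in controls and 2, 3 and 1 counts in cKO libraries. The proximal side of this comparison therefore rests almost wholly on Trav17.

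**Figure D5:**
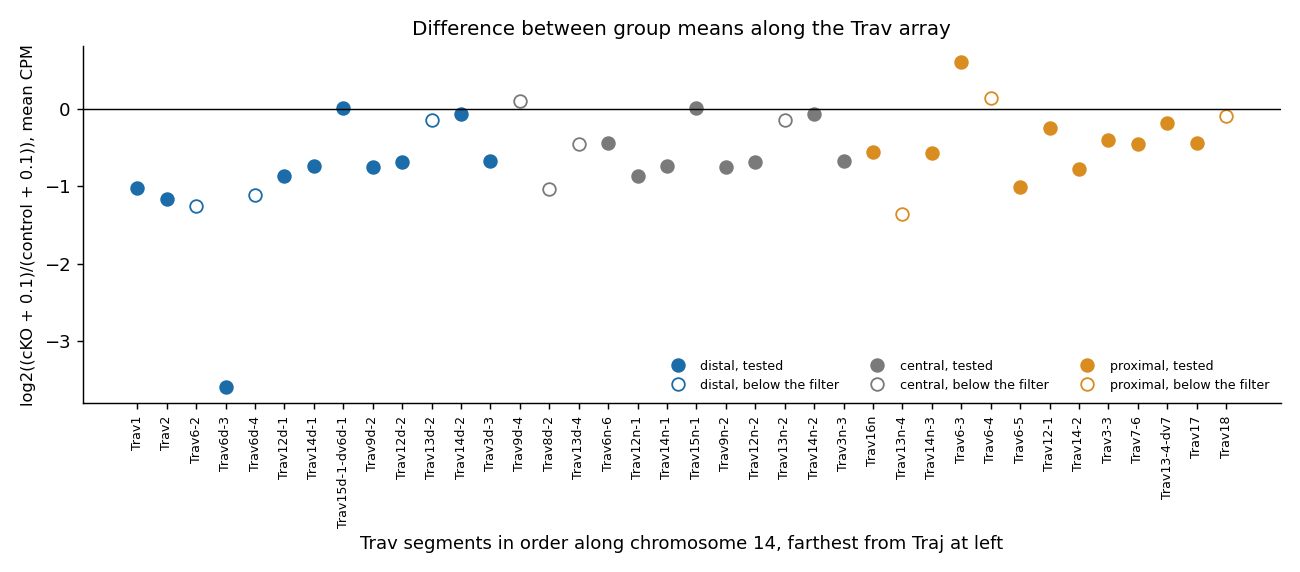
The 38 Trav segments in order along chromosome 14, farthest from Traj at the left, against the log2 ratio of the group mean CPM after adding 0.1 CPM to each (filled: tested; open: below the filter on low counts; colors: distal, central and proximal class). Most points lie below 0 in all 3 classes, Trav6d-3 is the lowest and its copy Trav6-3 the highest.

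None of the β variable segments was past the threshold. The table held 6 Trbv segments, of which 5 were tested, and the libraries of the genotypes overlapped for all but Trbv23 (4.67 ± 0.68 against 3.52 ± 0.16 CPM; log2 difference -0.41, edgeR adjusted p = 0.478). Trbv13-1 was at 27.6, 38.3 and 35.7 CPM in controls and at 37.4, 36.7 and 32.5 CPM in cKO libraries, with overlap (log2 difference 0.07 ± 0.17 SE; edgeR adjusted p = 0.837). Trbv31, which lies beyond Trbc2 in the opposite orientation, was at 16.2 ± 2.25 against 15.5 ± 1.79 CPM (-0.06; 0.881). Trbv26 was at 8.45 ± 1.73 against 7.46 ± 0.12 CPM (-0.18; 0.708). Summed Trbv levels were 65.7 ± 10.3 CPM in controls and 64.2 ± 4.77 CPM in cKO, with overlap. Per 1000 Trbc counts, Trbv counts were 10.18, 11.44 and 10.95 in controls and 14.9, 13.7 and 12.8 in cKO libraries, without overlap. These 6 segments are a small part of the 35 Trbv segments annotated in GENCODE M21, and the others were not analysed here.

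Diversity and joining segments, which are very short, gave almost no counts. The 51 Traj segments had 5 counts in all libraries together, over 5 segments, and the 13 Trbj segments had 3 counts. The Trbd, Trdd, Trdj and Trgj segments had 0 counts in every library. For reads assigned to these rows, a count of 0 allows up to 3 counts, or 0.114 to 0.158 CPM, per library. It sets no limit on the level of transcripts that contain such a segment. Trac had 56930 counts in all libraries together, beside 5 for Traj. Changes in J segment use along the Traj array could therefore not be read from these counts.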

How the data were processed

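DP thymocytes were sorted from control and Paxbp1 cKO mice, and 3 libraries per genotype were sequenced on a HiSeq2500 instrument after cDNA amplification. The methods name a Discover-sc WTA kit and a TruePrep kit, whereas the labels name a SMARTER kit. The authors deposited 1 table with raw counts per gene and FPKM values, which the authors scaled by gene length and sequencing depth. The submitters' processing notes name fastp 0.18.0, Bowtie2 2.2.8, HISAT2, StringTie 1.3.1 and RSEM. The build, the annotation and the handling of reads that match several segments were not given in the sources used here. Columns with the authors' own fold changes and p-values were not used.

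Segments were matched by Ensembl identifier to GENCODE M21 on GRCm38 for positions and coding sequences, and all 131 matched. Of the 270 annotated segments, 139 were not analysed here. Counts were tested with edgeR 4.0.16 in R 4.3.3 (filterByExpr with a minimum count of 10 and total of 15, TMM, genotype as the only term), with Benjamini-Hochberg adjustment over 11488 of 15349 genes with a count. SE is the log2 difference divided by the square root of F. The test was checked on simulated data.

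No 2 libraries of a genotype were duplicates (chi-square per degree of freedom 19.1 to 64.9). Alternatives were RLE factors, library totals, TMM without the segments, no filter, a minimum of 5 CPM, DESeq2 1.42.0, a replicate block, fits without 1 library, other weightings and copies summed. Named segments were all constant segments, every called segment, the 3 highest of each locus and kind, Trav11, Traj18 and Trav1. Trav2, Trav6-2, Trav6-3, Trav9d-2, Trav9n-2, Trav17, Trav18, Trbv23 and the marker genes named were chosen after their values were seen. The members and lists were chosen with earlier results of these data known. A result on 1 listed gene is not reported here.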

Additional observations from a re-analysis of the deposited data

How the results depend on the processing

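The 6 called segments numbered 5 to 6 under RLE factors, library totals, TMM without the segments, no filter, the replicate block, DESeq2 and summed copies, and 3 with a minimum mean of 5 CPM, where the 4 segments past both thresholds became 2. With that minimum Trac, Trgc1 and Trgc2 were called, and Trbc2 was not, although its mean was 3315 CPM. Fits without 1 library called 0 to 7 segments (0 to 4 past both thresholds), with none left without cKO replicate 3, where 120 genes were called in all beside 1191 in the full fit. Without control replicate 1, 7 segments and 2030 genes were called. The replicate numbers were not shown to pair the libraries (correlations of deviations 0.045, 0.038 and -0.030). With the replicate block, 6 segments were called, Trgc4 dropping out and Trbc1 (log2 difference -0.35) entering. DESeq2 gave no adjusted p for Trav6d-3. The distal and proximal differences were -15.4 and 15.4 points without segments that have a d or n copy, and -2.81 and 2.55 points without Trav6-3 and Trav6d-3. With segments weighted equally they were -8.07 points for distal and 3.24 points for central segments, and with pairs entered once -6.09 points for distal segments. Entering pairs once left 13 distal and 4 central segments, so every pair was counted as distal. The distal median was -1.26 without segments that have a copy. Spearman's rank correlation was 0.38 without the Trav6 copies and 0.55 with pairs entered once. Without 1 library each, the proximal difference was 3.74 to 5.83, the central -0.53 to 0.73 and the distal -5.55 to -4.33 points, the central median -0.86 to -0.45 and the rank correlation 0.28 to 0.55. Uncalled log2 differences crossed 0 for Trbv13-1 (-0.061 to 0.16), Trbv31 (-0.16 to 0.042), Trdv1 (-0.13 to 0.42), Trav6-3 (-0.22 to 1.18) and Myb (-0.14 to 0.18, and 0.0040 with the replicate block). The causes of these changes were not tested. No Trav segment reached a mean of 5 CPM.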
